A study of Mus musculus with 6 samples.

Results

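The genes described here are 38 markers of cell division that were listed by name, 13 of the S phase, in which DNA is copied, and 25 of mitosis and the steps that lead into it. A gene was taken from the deposited table when its array feature carried that gene symbol and no other. This held for 36 of the 38, 12 S-phase and 24 mitotic genes, among 30063 genes in all. Mcm7 lay in a feature shared with other symbols and Ccnb1 was not named by the array annotation used, so neither is given a value. Ventricular tissue of 6 male mice was used, with 1 Affymetrix array per mouse. Finerenone, a non-steroidal blocker of the mineralocorticoid receptor, was fed to 3 of them at 100 ppm in chow, starting at weaning (4 weeks of age). The 3 untreated mice received the same chow without drug, and mice of both groups were killed at 20 weeks. Allocation was random, per the labels. All 6 carried, on a C57BL/10 background, the "Het" genotype, which lacks dystrophin and has lost 1 of its 2 utrophin copies. Healthy hearts were not analysed here, so the comparison is between treated and untreated dystrophic hearts only.

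Cells that divide first express the G1/S cyclins and the replication machinery, and later the cyclins, kinases and spindle proteins of mitosis. Transcription of the early set is driven by E2F factors, and that of the late set by the MuvB complex with B-Myb and FoxM1. Adult cardiomyocytes have mostly left the cell cycle, and in an injured heart the dividing cells are largely immune, endothelial and stromal cells. In whole ventricle a change in the number of dividing cells cannot be told apart from a change in RNA per cell.

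No S-phase or mitotic gene passed the test for a difference between finerenone and untreated hearts. In limma, a linear model fitted to all genes, 0 of the 36 members passed an adjusted p of 0.05, as did 0% of all genes, and the smallest adjusted p among the members was 0.597. At an unadjusted p below 0.05 there were 2 members, Pcna and Mcm6, both S-phase genes with higher signal in treated hearts. That is 5.56% of the members, against 7.81% of all 30063 genes (5.69% higher and 2.12% lower). The groups did not overlap for 4 members (11.1%), Pcna, Mcm6, Kif20a and Tpx2, all with higher signal in treated hearts, against 12.3% of all genes (8.17% higher and 4.17% lower). Both shares lay near the background. S-phase members had a median log2 difference of 0.11 with 10 of 12 higher, and mitotic members one of 0.06 with 18 of 24 higher. Over all genes the median was 0.03 and 58.2% were higher.

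**Figure D1:**
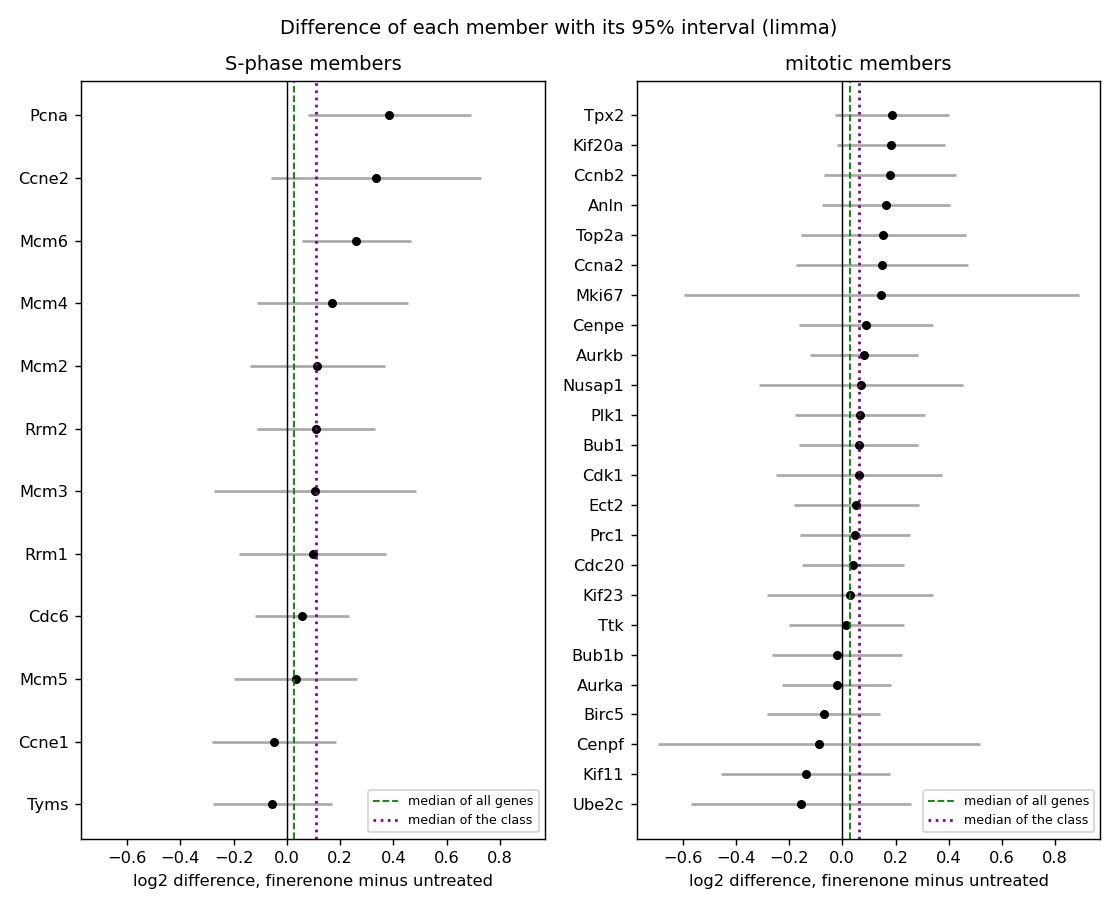
Log2 difference (finerenone minus untreated) of each S-phase and mitotic member, with points for the limma estimate and bars for its 95% interval; dashed lines mark the median of all genes (0.03) and dotted lines the median of the class (0.11 and 0.06). The intervals of Pcna and Mcm6 lie above 0, as do those of 1711 of all 30063 genes. Those of the other S-phase members and of all 24 mitotic members include 0.

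Much of the signal was dim. The median of the negative control features was 5.04 to 5.29 in the finerenone arrays and 5.11 to 5.33 in the untreated arrays, on the same log2 scale as the genes. Of the S-phase members 7 of 12 lay above that median on all 6 arrays and 3 on none. Of the mitotic members 4 of 24 lay above it on all 6 arrays, namely Mki67, Ccna2, Cenpf and Ube2c, and 11 on none. Counted per array, 12 to 21 of the 36 members lay above it, and 13605 to 14710 of all 30063 genes. Pcna was the only member above the 95th percentile of the negative controls (8.35 to 8.72 in finerenone arrays and 8.35 to 8.73 in untreated arrays), on all 6 arrays. Per array, 4944 to 5832 of all 30063 genes exceeded it. For the dim members, small differences between groups are differences near background. The labelled tissue was borne out by its markers, since all 7 measured cardiomyocyte genes, among them Myh6 and Tnnt2, exceeded that percentile on every array.

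Promoters are shown because the S-phase and mitotic members differed in short sequence elements, which had no part in choosing them. RefSeq promoter windows of mouse build GRCm38.p6, from 250 bases before to 50 after the start, were matched by symbol for 30 of the 36 members. Ccne2, Mcm4, Ccna2, Aurkb, Kif20a and Tpx2 had no match and are left out of the shares below. For genes with several windows the first listed was used. The elements searched, on both strands, were TTTGAA, the CHR element of late cell cycle genes, CCAAT, the site of the factor NF-Y, and an E2F-type site. The E2F-type site was taken in the form TTGGCGC, in the form TTCGCGC and in the form TTCCCGC. E2F-type forms can overlap one another, and the reverse of CCAAT can share bases with TTGGCGC. The CHR element TTTGAA was present in 16 of 20 mitotic windows (80%), 1 of 10 S-phase windows (10%) and 18.1% of windows of all 27025 genes. CCAAT was present in 17 of 20 mitotic windows (85%), 7 of 10 S-phase windows (70%) and 37.9% of all windows. An E2F-type site was present in 3 of 20 mitotic windows (15%), 5 of 10 S-phase windows (50%) and 8.21% of all windows. A match is a description of the letters and not evidence that a factor binds there.

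The 150 bases before the start are given for 5 members, 5′ to 3′ on the gene's strand, with matches in capitals. Pcna (chr2:132253181-132253330) and Mcm6 (chr1:128359706-128359855) are the S-phase genes that came nearest to a difference. Mki67 (chr7:135716380-135716529), Top2a (chr11:99024190-99024339) and Ccnb2 (chr9:70421555-70421704) are mitotic genes with CCAAT and TTTGAA in their windows, and all 5 genes lie on the minus strand. In Mcm6 the capitals hold E2F-type sites and reversed CCAAT, and in Pcna a reversed CCAAT. In Ccnb2 they hold CCAAT in 3 places, its TTTGAA matches starting 167 bases before and 4 bases after the start, outside the stretch shown. In Mki67 they hold all 3 kinds of element. In Top2a they hold CCAAT on either strand, and the CHR element on the opposite strand, beginning 23 bases before the start.
Pcna: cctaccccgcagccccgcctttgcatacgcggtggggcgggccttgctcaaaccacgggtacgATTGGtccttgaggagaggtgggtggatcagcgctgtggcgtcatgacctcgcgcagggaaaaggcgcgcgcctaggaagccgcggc
Mcm6: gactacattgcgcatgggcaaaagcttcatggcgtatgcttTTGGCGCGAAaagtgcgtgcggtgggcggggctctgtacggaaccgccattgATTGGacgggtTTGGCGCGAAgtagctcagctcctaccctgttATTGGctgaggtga
Mki67: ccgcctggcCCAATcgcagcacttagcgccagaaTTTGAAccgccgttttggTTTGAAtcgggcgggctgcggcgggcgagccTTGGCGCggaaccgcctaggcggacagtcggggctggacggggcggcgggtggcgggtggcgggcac
Top2a: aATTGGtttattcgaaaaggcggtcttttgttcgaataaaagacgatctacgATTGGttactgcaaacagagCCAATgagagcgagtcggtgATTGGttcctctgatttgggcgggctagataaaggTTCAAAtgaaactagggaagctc
Ccnb2: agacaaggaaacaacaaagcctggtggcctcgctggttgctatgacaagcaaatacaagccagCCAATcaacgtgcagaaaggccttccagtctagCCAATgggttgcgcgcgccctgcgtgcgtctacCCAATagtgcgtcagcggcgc

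Among the S-phase genes, Pcna, the sliding clamp that holds DNA polymerases on the template, measured 9.84, 9.65 and 9.68 in finerenone hearts, against 9.22, 9.58 and 9.21 in untreated hearts. Every treated heart was above every untreated heart, but untreated replicate 2 lay close to the lowest treated heart. The log2 difference was 0.38 ± 0.13 (SE, 1.31-fold), with a 95% interval of 0.08 to 0.69 and a limma adjusted p = 0.5998. Mcm6, a subunit of the replicative helicase, measured 6.44, 6.30 and 6.26 in finerenone hearts, against 6.001, 6.12 and 6.10 in untreated hearts. Its groups did not overlap either. The difference was 0.26 ± 0.09 (SE, 1.198-fold), with an interval of 0.06 to 0.47 and a limma adjusted p = 0.597.

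The other measured subunits of the same helicase ring, which unwinds DNA ahead of the polymerase, all had positive estimates with groups that overlapped. Mcm4 measured 6.74, 6.81 and 6.60 in finerenone hearts, against 6.51, 6.75 and 6.39 in untreated hearts, a difference of 0.17 ± 0.12 (SE). Mcm2 measured 5.45, 5.11 and 5.34 in finerenone hearts, against 5.16, 5.22 and 5.17 in untreated hearts, a difference of 0.11 ± 0.11. Here finerenone replicate 2 held the lowest value of the 6. Mcm4 differed by 0.09 without untreated replicate 3 and 0.27 without untreated replicate 2, and Mcm2 by 0.04 without finerenone replicate 1 and 0.21 without finerenone replicate 2. Mcm3 differed by 0.11 ± 0.16. Over the 5 measured subunits the differences ran from 0.03 (Mcm5) to 0.26 (Mcm6), with a median of 0.11. Only Mcm6 had an unadjusted p below 0.05 in limma (1 of 5, or 20%, against 7.81% of all genes), so that share rests on 1 gene.

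Of the G1/S cyclins, which activate Cdk2 for entry into S phase, Ccne2 measured 6.45, 6.63 and 6.05 in finerenone hearts, against 5.90, 6.05 and 6.18 in untreated hearts. Replicates 1 and 2 of the finerenone group were high and replicate 3 lay within the untreated range. The difference was 0.33 ± 0.16 (SE), with an interval of -0.06 to 0.73, and it was 0.21 without finerenone replicate 2. Ccne1 was below the median of the negative controls on all 6 arrays and differed by -0.05 ± 0.10. Of the genes that supply nucleotides, the ribonucleotide reductase subunits Rrm1 and Rrm2 differed by 0.10 ± 0.11 and 0.11 ± 0.09, and thymidylate synthase Tyms by -0.05 ± 0.09. Cdc6, which loads the helicase at origins, differed by 0.06 ± 0.07 and was also below that median on every array.

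**Figure D2:**
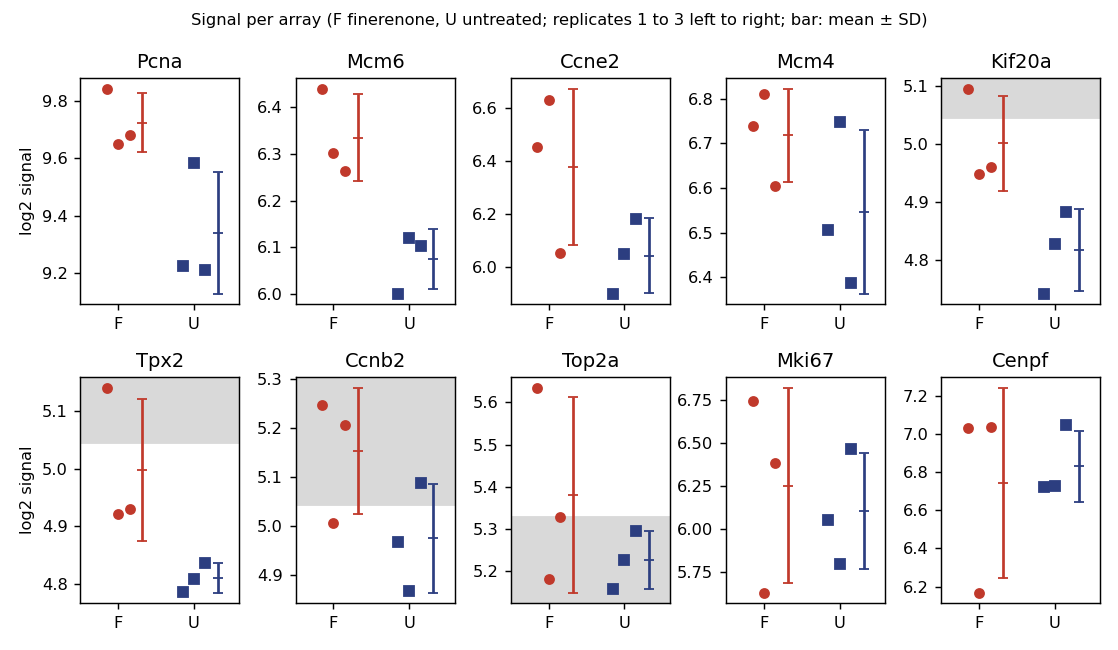
Log2 signal of 10 members in each array, with points for replicates 1 to 3 of the finerenone (F) and untreated (U) groups, bars for mean ± SD (n = 3 each), and grey for the range of the negative control medians (5.04 to 5.33). Each panel has its own axis; the groups are separate for Pcna, Mcm6, Kif20a and Tpx2 and overlap for the other 6 genes, and Mki67 spans 5.63 to 6.74 among treated hearts.

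Among the mitotic genes, Mki67, the Ki-67 protein that coats mitotic chromosomes and is the usual mark of dividing cells, measured 6.74, 5.63 and 6.38 in finerenone hearts, against 6.05, 5.79 and 6.46 in untreated hearts. The highest and the lowest of the 6 values were both from treated hearts. Their range was 1.11 in finerenone hearts and 0.67 in untreated hearts. The difference was 0.15 ± 0.31 (SE), with an interval of -0.60 to 0.89. Leaving out finerenone replicate 1 made it -0.10, and leaving out untreated replicate 2 made it -0.01. Mki67 had the largest standard deviation within groups of the 36 members (0.468), against a median of 0.117 over the members and 0.156 over all genes.

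Top2a, the topoisomerase that untangles sister chromatids, measured 5.63, 5.18 and 5.33 in finerenone hearts, against 5.16, 5.23 and 5.30 in untreated hearts. Finerenone replicate 1 was high and the other treated hearts lay at the level of the untreated ones. The difference was 0.15 ± 0.13 (SE), and 0.03 without finerenone replicate 1. Cdk1, the kinase that starts mitosis, measured 4.95, 4.54 and 4.67 in finerenone hearts, against 4.75, 4.52 and 4.69 in untreated hearts, below the negative control median throughout. The difference was 0.06 ± 0.13, and -0.05 without finerenone replicate 1. Of its cyclins, Ccnb2 measured 5.25, 5.01 and 5.21 in finerenone hearts, against 4.97, 4.87 and 5.09 in untreated hearts, a difference of 0.18 ± 0.10. Ccna2, which acts in S phase as well as before mitosis, differed by 0.15 ± 0.13.

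Kif20a, a kinesin of the central spindle, measured 5.09, 4.95 and 4.96 in finerenone hearts, against 4.74, 4.83 and 4.88 in untreated hearts. The groups did not overlap, but every value lay below the negative control median of its array. The difference was 0.18 ± 0.08 (SE), with an interval of -0.02 to 0.39 and a limma adjusted p = 0.659. Tpx2, which activates Aurora A on the spindle, measured 5.14, 4.92 and 4.93 in finerenone hearts, against 4.79, 4.81 and 4.84 in untreated hearts. Only finerenone replicate 1 stood above its array's negative control median. The difference was 0.19 ± 0.09 (limma adjusted p = 0.669). Anln, the scaffold of the cleavage furrow, measured 5.10, 4.93 and 4.84 in finerenone hearts, against 4.75, 4.72 and 4.90 in untreated hearts, a difference of 0.16 ± 0.10. Without finerenone replicate 1, Tpx2 differed by 0.12 and Anln by 0.09.

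The mitotic members not yet described had differences between -0.15 and 0.09. Of 5 genes of cytokinesis (Kif20a, Kif23, Prc1, Ect2 and Anln) 5 had positive estimates, with a median of 0.05. Of the Aurora and Polo kinases and survivin (Aurka, Aurkb, Plk1 and Birc5) 2 were positive and 2 negative, with a median of 0.02. The spindle checkpoint genes Bub1, Bub1b and Ttk ran from -0.02 to 0.06. The kinetochore motor Cenpe differed by 0.09 ± 0.10 (SE), the spindle protein Nusap1 by 0.07 ± 0.16 and Cdc20, the activator of the anaphase-promoting complex, by 0.04 ± 0.08. Negative estimates were found for 6 mitotic members, led by Ube2c (-0.15 ± 0.17, SE), the ubiquitin-conjugating enzyme of the anaphase-promoting complex, and the spindle motor Kif11 (-0.14 ± 0.13). Cenpf, a kinetochore protein, measured 7.03, 6.17 and 7.03 in finerenone hearts, against 6.72, 6.72 and 7.05 in untreated hearts. Finerenone replicate 2 was the low value there, as in Mki67, and the difference was -0.09 ± 0.25. Among the mitotic members 0 had an unadjusted p below 0.05 in limma (0%, against 7.81% of all genes).

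The difference between the groups was smaller than the standard deviation within groups in 25 of 36 members, and in 19852 of all 30063 genes. Over the members the median standard deviation within groups was 0.117 and the median difference 0.07. Finerenone replicate 1 held the highest of the 6 values in 22 of 36 members, 7 of 12 S-phase and 15 of 24 mitotic ones. Over all genes that array held the highest value in 19.9%. Among the treated hearts alone it was highest in 18 of 24 mitotic members, while finerenone replicate 2 was lowest in 13. Over all 30063 genes the same counts were 10586 and 8913. Among the untreated hearts replicate 3 was highest in 17 of 24 mitotic members, and replicate 2 was highest in 7 of 12 S-phase members. Over all 30063 genes untreated replicate 3 was highest of its group in 8758 and untreated replicate 2 in 10854. Without finerenone replicate 1 the mitotic median was -0.003, with 12 members higher and 12 lower, and the S-phase median was 0.05, with 8 higher and 4 lower. Without finerenone replicate 2 the mitotic median was 0.11, and without untreated replicate 2 the S-phase median was 0.16.

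**Figure D3:**
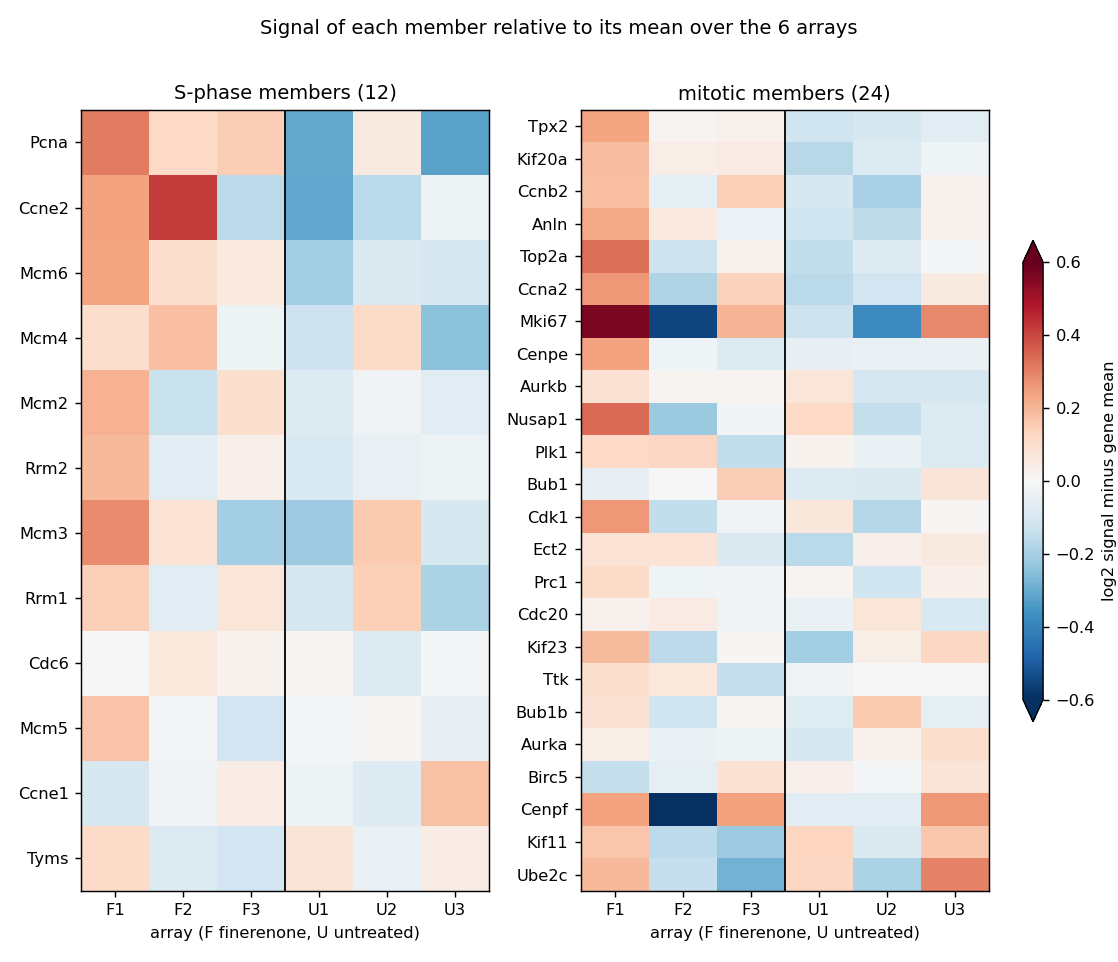
Log2 signal of each member minus its mean over the 6 arrays, in columns for finerenone (F1 to F3) and untreated (U1 to U3) replicates, with members ordered by group difference; red is above and blue below the gene's mean, and the colour scale ends at 0.6. The F1 column is red for most members of both classes, and F2 is blue for Mki67 and Cenpf.

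The S-phase members averaged 5.99 ± 0.09 in finerenone hearts and 5.86 ± 0.06 in untreated hearts (SD, n = 3 each), on the log2 scale. The mitotic members averaged 5.05 ± 0.13 in finerenone hearts and 5.001 ± 0.06 in untreated hearts. All genes together averaged 6.18 ± 0.03 in finerenone hearts and 6.13 ± 0.01 in untreated hearts. The difference of the class means, 0.13 for S-phase and 0.05 for mitotic members, compares with 0.04 for all genes.

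Markers of cell types that can divide also differed between animals. Of 12 macrophage and monocyte markers 11 had positive estimates, with a median difference of 0.28. Their mean log2 signal ran from 8.40 to 8.78 in finerenone hearts and from 8.13 to 8.53 in untreated hearts. Finerenone replicate 1, which was high for the cell cycle members, was also highest for 6 of these 12 markers and had the highest mean of the 6 arrays. Fibroblast markers had positive estimates in 5 of 8 and means from 11.33 to 11.78 in finerenone hearts and from 11.22 to 11.73 in untreated hearts, again highest in finerenone replicate 1. Among untreated hearts, replicate 2 was highest in the macrophage mean, the fibroblast mean and the S-phase mean, but lowest in the mitotic mean (4.95). Untreated replicate 3 had the highest mitotic mean of that group (5.07) and its lowest macrophage (8.13) and fibroblast (11.22) means. Endothelial markers had negative estimates in 9 of 9, with means from 11.58 to 11.71 in finerenone hearts and from 11.70 to 12.43 in untreated hearts, the highest in untreated replicate 1. T and NK cell markers (means 4.32 to 4.38 in finerenone and 4.40 to 4.43 in untreated hearts) and B cell markers (4.11 to 4.23 in finerenone and 4.19 to 4.35 in untreated hearts) lay below the negative control median. Positive estimates were found for 1 of 8 smooth muscle and pericyte markers, 2 of 6 neutrophil markers and 1 of 4 erythroid markers. The part of these cells in the member values was not tested.

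**Figure D4:**
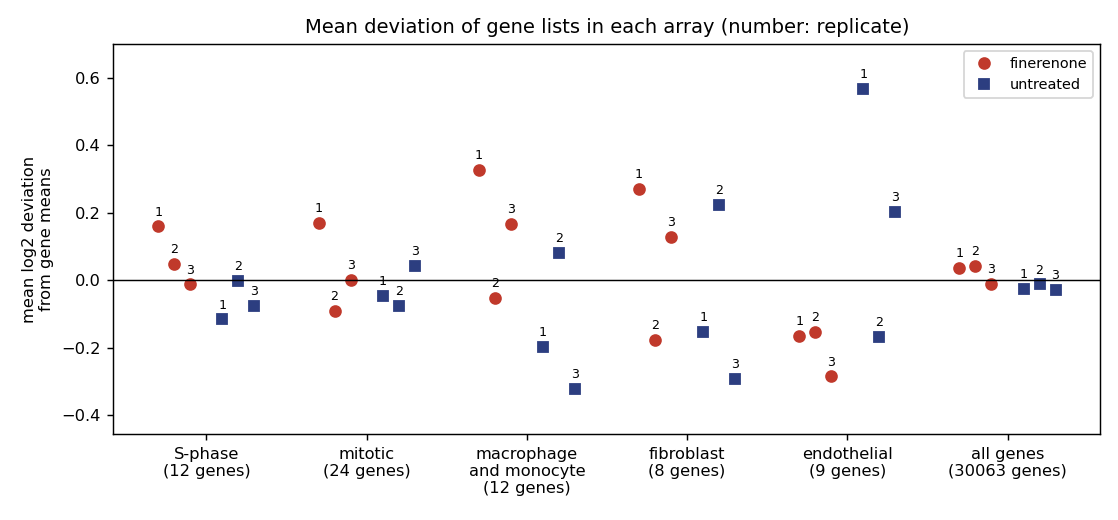
Mean log2 deviation of each gene list from its genes' means over the 6 arrays, with circles for finerenone and squares for untreated hearts, each numbered by replicate. Finerenone replicate 1 is highest for the S-phase (0.16), mitotic (0.17), macrophage (0.33) and fibroblast (0.27) lists, and untreated replicate 1 for the endothelial list (0.57).

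Other genes of the cell cycle were read from 7 further lists, of which 107 of 111 genes were measured. In limma 0 of the 107 passed over all genes, 4 had an unadjusted p below 0.05 (3.74%, against 7.81% of all genes), 2 higher and 2 lower. The groups did not overlap for 14 of them (13.1%, against 12.3% of all genes). Positive estimates were found for 75 (70.1%, against 58.2% of all genes), with a median of 0.06. The share with an unadjusted p below 0.05 lay below the background and the share without overlap near it. The share with positive estimates lay above that of all genes, a difference that was not tested. In these lists finerenone replicate 1 held the highest value in 22.4% of genes and finerenone replicate 2 in 29%, against 19.9% and 22.7% of all genes. Replication genes were mostly positive, 16 of 19 for DNA synthesis and nucleotides (median 0.09) and 11 of 14 for origin licensing and firing (median 0.07). Among them Rfc4, a subunit of the clamp loader that opens Pcna, differed by 0.42 ± 0.19 (SE), the chromatin remodeller Hells by 0.16 ± 0.08, Gins4 of the helicase complex by 0.23 ± 0.11 and Dbf4, the activator of the Cdc7 kinase, by 0.18 ± 0.09. Kinetochore and checkpoint genes were positive in 14 of 19 (median 0.07), led by Mad2l1, a checkpoint protein, at 0.28 ± 0.09, while the centromere histone Cenpa differed by 0.21 ± 0.12. Mad2l1 measured 6.60, 6.58 and 6.40 in finerenone hearts, against 6.29, 6.25 and 6.19 in untreated hearts, without overlap (limma adjusted p = 0.597). Spindle, chromosome and cytokinesis genes were positive in 18 of 25 (median 0.05), with the spindle protein Ckap2 at -0.14 ± 0.10.

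Regulators upstream of both sets gave no common direction. E2F, pocket protein and MuvB genes were positive in 9 of 17, with a median of 0.01. E2f1 differed by 0.12 ± 0.08 (SE), Lin9, a MuvB subunit, by 0.22 ± 0.09 and E2f5 by -0.13 ± 0.07. Foxm1 and Ccnd1 lay in features shared with other symbols and have no value here. Of the G1 cyclins and kinases 1 of 6 was positive. Ccnd2, a D-type cyclin, measured 11.80, 11.74 and 11.51 in finerenone hearts, against 12.00, 12.29 and 11.87 in untreated hearts, a difference of -0.37 ± 0.14 (limma adjusted p = 0.613). Its groups did not overlap. Cdk6 differed by -0.12 ± 0.15, and by 0.04 without untreated replicate 1.

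Of the 7 CDK inhibitors 6 had positive estimates, with a median of 0.10, and Cdkn1a was the one with a negative estimate. Cdkn1a and Wee1, which restrain cyclin-dependent kinases, had the widest differences of the 107 genes. Cdkn1a, the inhibitor p21, differed by -1.66 ± 0.50 (SE), with 12.13 in finerenone replicate 1 and 10.24 and 10.27 in the other treated hearts, against 12.69, 12.42 and 12.51 in untreated hearts (limma adjusted p = 0.597). Cdkn2c, the Cdk4 and Cdk6 inhibitor p18, measured 5.47, 5.36 and 5.25 in finerenone hearts, against 4.995, 5.06 and 4.93 in untreated hearts, a difference of 0.37 ± 0.09 (limma adjusted p = 0.597) near background. Wee1, the kinase that holds Cdk1 inactive, measured 8.48, 10.09 and 10.31 in finerenone hearts, against 8.59, 8.48 and 8.93 in untreated hearts, a difference of 0.96 ± 0.47 that was 1.54 without finerenone replicate 1 and 0.62 without finerenone replicate 3. In Cdkn1a and Wee1 finerenone replicate 1 lay on the side of the untreated hearts. The same animal had the highest class means for S-phase and mitotic members. A link between these values was not tested, and they come from 1 animal. None of the 3 genes passed the adjusted threshold.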

How the data were processed

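The deposited values are log2 signals per transcript cluster. The submitters' processing notes name RMA, the Affymetrix Expression Console and also the Transcriptome Analysis Console as the authors' tools, with no version or annotation build (not given in the sources used here). Clusters were named by the platform annotation, with repeated symbols counted once and updated through Entrez identifiers and synonyms to RefSeq GRCm38.p6. Of 65956 clusters, 30604 had a single symbol, giving 30063 genes. Where a gene had more than 1 cluster (429 genes), the brightest on average was kept.

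Groups came from the sample titles. Differences are finerenone minus untreated, fitted with lmFit and eBayes of limma 3.58.1 (R 4.3.3), two-sided and without covariates, adjusted over all genes by Benjamini-Hochberg at 0.05. The fit was tested on simulated data. Precision is limited by having 3 arrays per group. The labels call the mice biological replicates.

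Members and lists were chosen with earlier results of these data known, so class medians and counts carry no test. Values in every array are given for Mki67, Top2a, Cdk1, Pcna and Mcm2, the 4 members per class with the smallest unadjusted p, and members without overlap; Cenpf was added after its values were seen. Of each other list the 2 genes with the smallest p are named, with Cdkn1a and E2f1. Alternatives covered scaling, filters on dim genes, priors, weights, a replicate block and each array left out.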

Additional observations from a re-analysis of the deposited data

How the results depend on the processing

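In every alternative run, 0 genes and 0 members passed the adjusted threshold in limma: quantile normalization, median centring, cyclic loess, filters on dim genes, averaging the clusters of a gene, a robust prior with trend, weighted arrays, the replicate block, each array left out and all transcript clusters tested together. Scaling moved the median of all genes by less than 0.02 (log2), from -0.016 to -0.012. That median was then 0.012 to 0.017, against 0.028 in the main fit. The share of all genes that were higher was 53.7% to 54.9%, against 58.2%. The members higher stayed at 10 of 12 S-phase and 18 of 24 mitotic genes.

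With genes of mean signal 6 or more, the 5 S-phase members left had a median of 0.26, and the 3 mitotic members left had one of -0.087. In that fit 2 members, Pcna and Mcm6, had an unadjusted p below 0.05 in limma (25%, against 11.5% of all genes in the fit). The groups did not overlap for 2 members (25%, against 15.9% of all genes in the fit). Among genes at or above the median level both counts were also 2 (9.52%). The shares of all genes in that fit were 10.2% for the unadjusted p and 14.7% for groups without overlap. Fewer members entered these fits. With single arrays left out, the members at an unadjusted p below 0.05 ran from 0 to 3 (0 without finerenone replicate 1 or untreated replicate 1), or 0% to 8.33%, against 5.6% to 9.26% of all genes in the same fits, the members without overlap from 6 to 11, or 16.7% to 30.6%, against 20.8% to 25.7% of all genes, the S-phase median from 0.05 to 0.16 and the mitotic median from -0.003 to 0.11. Mki67 then ran from -0.10 to 0.46, Cdk1 from -0.052 to 0.15 and Cdk6 from -0.22 to 0.042, and these changed sign; for Cdk1 this happened without finerenone replicate 1 or untreated replicate 2 (-0.01). The other named genes kept their sign, but 14 of the 27 named genes, Mki67, Cdk1 and Cdk6 among them, moved by over 1.5 times without some array. Among the further genes of the pathway, Gins4 was 0.13 and E2f1 0.077 without finerenone replicate 2, Cenpa was 0.13 without finerenone replicate 1 or untreated replicate 1, and Ckap2 was -0.070 without finerenone replicate 1.

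Same-numbered deviations from the group means correlated at -0.154, 0.058 and 0.059, and differently numbered ones at -0.174 to 0.121. Deviations within a group cancel out, which ties these correlations together. They cannot decide whether replicate numbers pair the arrays. With the replicate block, 1 member had an unadjusted p below 0.05 in limma (2.78%, against 7.69% of all genes). Without the block there were 2 (5.56%, against 7.81% of all genes). Signals near the negative controls, as in most mitotic members, limit what small differences can show.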
